A study of Mus musculus with 4 samples.

Results

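The genes studied here encode the enzymes, transporters and regulators that carry glucose to pyruvate and lactate, feed pyruvate to the mitochondria, or divert glucose into the pentose phosphate pathway. A list of 33 genes was matched by symbol to the gene tables of 4 RNA-seq libraries. Of these, 32 had a row in at least 1 library and 31 had a row in all 4, among 12417 genes kept in the whole series. Eno1 had no row under its own symbol, and Eno3 had a row in 2 of the 4 libraries.

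The 4 libraries came from bone marrow of WT (wildtype) and GRK6-/- (GRK6 knockout) mice of the C57BL/6 strain, adult animals by the methods, with HSC and CLP sorted from each genotype and 1 library for each of the 4 groups. HSC, hematopoietic stem cells, were sorted as Lin-c-kit+sca-1+ cells. This gate holds multipotent progenitors as well as stem cells. CLP, common lymphoid progenitors, were sorted as Lin-c-kit+sca-1+ cells that also carried Il-7Ra. GRK6 is a kinase that phosphorylates active G protein-coupled receptors, and the knockout lacks a run of exons common to its splice forms in every cell of the animal. Each library pooled cDNA of 13 to 15 single cells, picked from 3 to 4 mice and amplified cell by cell by 20 and then 10 cycles of PCR. No group has a replicate, so the spread between mice, between cells or between preparations of one group was not measured, and every contrast below compares 1 library with another.

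Glycolysis splits glucose into pyruvate in the cytosol and yields ATP without oxygen. Pyruvate is then reduced to lactate by lactate dehydrogenase or oxidized by the mitochondrial pyruvate dehydrogenase complex, which pyruvate dehydrogenase kinases switch off. The pentose phosphate pathway makes NADPH, which keeps glutathione reduced, and ribose for nucleotides. Stem cells of the bone marrow are known for relying on glycolysis more than on respiration.

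The values are FPKM, fragments scaled to transcript length and to the mapped total, so that levels of different genes can be set side by side within a library. Where a table lacked a gene, its FPKM was set to 0. Values given for the libraries in turn follow the order of WT HSC, then GRK6-/- HSC, then WT CLP, then GRK6-/- CLP. Contrasts are log2 ratios of FPKM + 1, and a gene past 2-fold is one whose absolute log2 ratio was at least 1. Scaling totals of about 2680000, 3690000, 4470000 and 2710000 fragments were estimated from the lowest values of the tables. At these totals, 27.75%, 33.75%, 21.25% and 28.25% of the 400 lowest values used lay near 1, 2 or 3 fragments. The share that evenly spread values would give was not worked out, so these shares do not show that the totals are right. The paper reports more reads for each lineage than these totals. The totals are only rough estimates of the number the values were scaled to. With them, 8 of the 126 values of the pathway genes rest on fewer than 30 fragments, and they belong to Aldoc, Eno3, Hk2 and Slc2a1. Pfkm in WT HSC lies just above this limit, at about 30.8 fragments. Pdk2 rests on about 35.1 and 45.2 fragments in the WT and GRK6-/- HSC libraries.

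Il7r, the gene of the marker that defines CLP, went with the population labels. It was at 120.1 and 75.1 FPKM in the WT and GRK6-/- CLP libraries, against no row and 1.08 FPKM in the HSC libraries, and Kit was between 26.2 and 81.8 FPKM in all 4. Ly6a, which encodes Sca-1, had no row in any library. Grk6 itself was higher in both libraries labelled GRK6-/-, at 42.7 (WT) and 89.4 (GRK6-/-) FPKM in HSC and 26.9 (WT) and 57.6 (GRK6-/-) FPKM in CLP. This goes against the labels as far as a value per gene can, since fragments from the exons that were not deleted count toward it. All genotype contrasts below are therefore named by the labels of the libraries. Markers of other cells were present too. The 7 erythroid markers with a row summed to 338, 1701, 154 and 18111 FPKM across the libraries, and all 7 were higher in the library labelled GRK6-/- in both populations. A single gene made up most of each sum. This was Hba-a2 in GRK6-/- CLP, at 17219.5 FPKM. It was Car2 in WT HSC, GRK6-/- HSC and WT CLP, at 299, 955 and 134 FPKM. The 7 neutrophil and myeloid markers summed to 17725, 11213, 8913 and 7699 FPKM across the libraries. The 4 B lineage markers with a row summed to 0, 0.639, 75.7 and 714 FPKM. Hbb-b1, of the erythroid list, and Pax5, of the B lineage list, had no row in any library.

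The genes took a similar part of each library. Their FPKM summed to 2818, 3021, 3065 and 2542 across the libraries. This was 0.444%, 0.435%, 0.474% and 0.425% of the summed FPKM of the libraries. Some steps of the glycolytic backbone differed little between the libraries. Gapdh, the dehydrogenase of glyceraldehyde phosphate, had 171, 144, 144 and 143 FPKM across the libraries. Aldoa, the main aldolase, had 167, 182, 151 and 144 FPKM in the same order. The plot of levels by gene shows both as tight groups of points, with Pfkm, Hk1, Hk3 and Ldha spread widely.

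**Figure D1:**
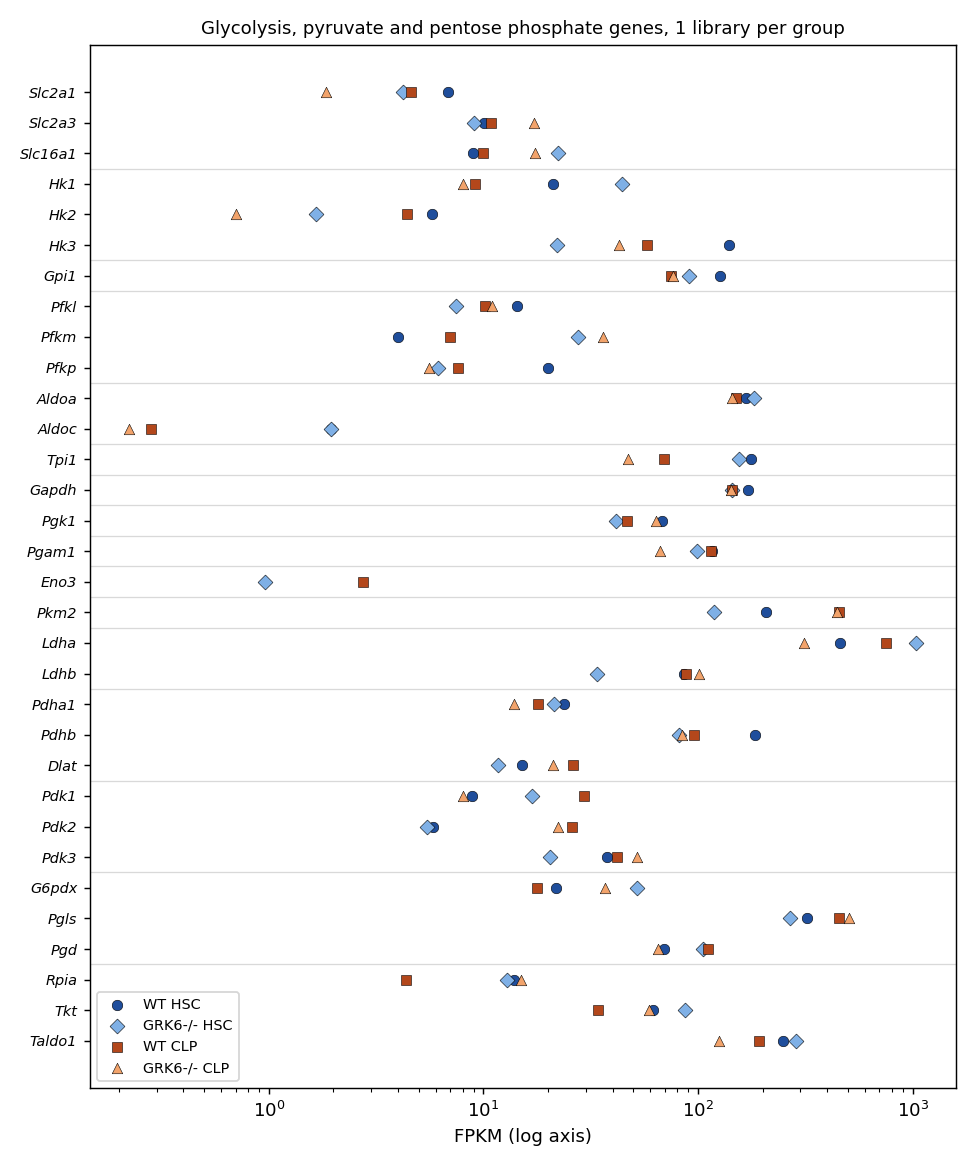
FPKM of each gene (log axis) in the 4 libraries, 1 point per library, with genes ordered by pathway step and steps divided by grey lines. A missing point means that the library has no row for the gene. Gapdh lies between 143 and 171 FPKM, whereas Pfkm lies at 3.99 and 6.96 FPKM in the WT libraries and at 27.7 and 36.1 in the GRK6-/- libraries.

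The first comparison asked how CLP differ from HSC, and it was made once in each genotype, in pairs of libraries that share none. CLP had more mRNA of pyruvate kinase and of the kinase Pdk2, and less of Hk1, Tpi1 and Aldoc, in both genotypes. In WT, 10 of 32 genes passed 2-fold, 4 higher and 6 lower in CLP. Among all 11202 genes with a row in either library the share was 46.5%, with 21.8% higher and 24.7% lower. In GRK6-/-, 9 of 32 passed, 4 higher and 5 lower, against 45.6% of all genes, with 22.3% higher and 23.4% lower. Among genes with a mean of at least 10 FPKM, a limit added after seeing the data, the counts were 7 of 25 in WT and 8 of 26 in GRK6-/-, against 41.9% of all such genes in both contrasts. The share of the pathway genes was below that of all genes, and no test of this was made. Their median log2 ratio was -0.27 in WT and -0.29 in GRK6-/-, beside -0.08 over all genes in both.

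Pkm2, which encodes pyruvate kinase M and turns phosphoenolpyruvate into pyruvate, had 208 (WT) and 119 (GRK6-/-) FPKM in HSC, and 452 (WT) and 444 (GRK6-/-) in CLP. Both CLP libraries lay above both HSC libraries, 2.18-fold in WT and 3.74-fold in GRK6-/-. Its locus in mm9 is chr9:59504383-59527182, plus strand. It makes an M1 and an M2 form by splicing, and 1 value per gene does not tell them apart. Pdk2, which phosphorylates pyruvate dehydrogenase and so slows the entry of pyruvate into the citric acid cycle, had 5.84 and 5.46 FPKM in the WT and GRK6-/- HSC libraries. In the CLP libraries it had 26.0 and 22.2 FPKM, 4.45-fold and 4.07-fold higher. Its 2 HSC values and its 2 CLP values were close within each population, and no other gene of the list separated the populations by as much in both genotypes on the log2 scale at its smaller contrast, 1.85.

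Tpi1, which interconverts the triose phosphates, had 176 and 155 FPKM in the WT and GRK6-/- HSC libraries and 69.5 and 47.1 in the CLP libraries, so that HSC were 2.53-fold and 3.30-fold higher. Hk1, the hexokinase found in most tissues and in red cells, had 21.1 and 44.4 FPKM in HSC and 9.14 and 8.04 in CLP. Aldoc, a minor aldolase here, had 1.94 and 1.95 FPKM in HSC and 0.284 and 0.224 in CLP. The CLP values of Aldoc correspond to about 3.53 and 1.69 fragments, so only a coarse difference is visible at this depth. Of all 10493 genes in both contrasts, 5.98% were higher and 6.82% lower past 2-fold in CLP of both genotypes, and 11.3% passed in opposite directions. Of the 32 pathway genes, 2 were higher in both, 3 lower in both and 0 opposite.

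**Figure D2:**
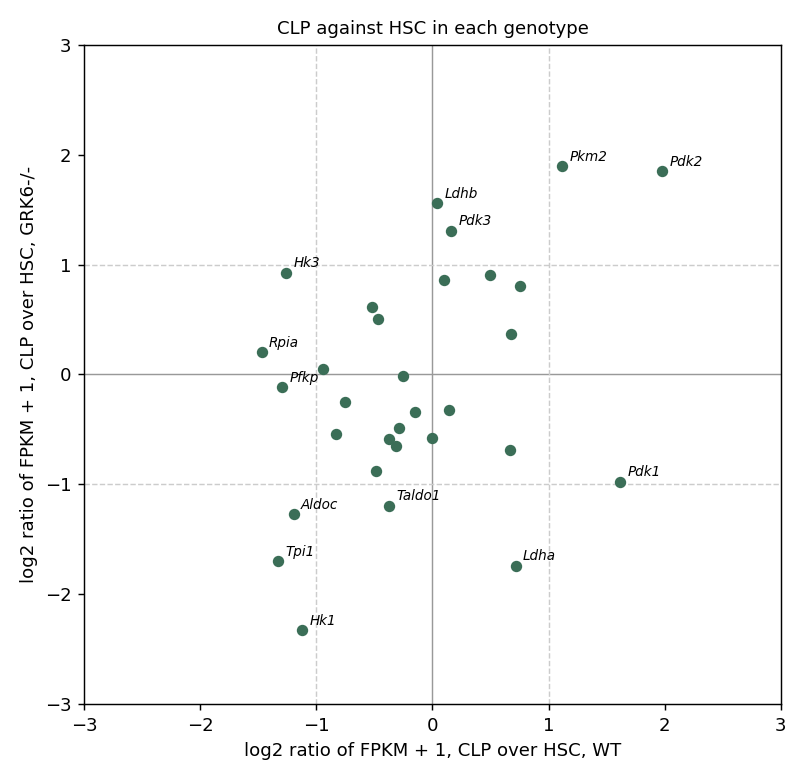
Log2 ratio of FPKM + 1, CLP over HSC, in WT (horizontal) and GRK6-/- (vertical), 1 point per gene, Eno3 left out. Dashed lines mark 2-fold, and genes past it on either axis are named. Pkm2 and Pdk2 lie at the upper right, Hk1, Tpi1 and Aldoc at the lower left, and Ldha and Pdk1 at the lower right, higher in CLP in WT and lower in GRK6-/-.

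The other genes past 2-fold passed in 1 genotype only. In WT, Pdk1 was higher in CLP, as was Eno3, which had no row in WT HSC, while Hk3, Pfkp and Rpia were lower. Rpia, the ribose phosphate isomerase of the pentose phosphate pathway, had 13.8, 12.9, 4.34 and 15.0 FPKM across the libraries, so that WT CLP stood apart from the rest. In GRK6-/-, Ldhb and Pdk3 were higher in CLP and Ldha and Taldo1 lower. Taldo1, transaldolase, had 249.3 and 287 FPKM in the HSC libraries and 192 and 125 in the CLP libraries, a log2 ratio of -0.37 in WT and -1.19 in GRK6-/-. Pgls, the lactonase of the oxidative branch, had 320.5, 268, 452 and 504 FPKM across the libraries. It was the most abundant pentose phosphate gene except in GRK6-/- HSC, where Taldo1 was higher. Both CLP values of Pgls exceeded both HSC values, with log2 ratios of 0.50 and 0.91. Tkt, transketolase, ran the other way between populations of the same genotype, at 61.6 and 86.8 FPKM in HSC and 34.1 and 59.4 in CLP.

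To test population over both genotypes at once, limma was fitted to 11230 genes with genotype as the second term, which leaves 1 residual degree of freedom. With 1 library per group, that residual is only how far the population contrast differs between genotypes. The SE and p-values of this model therefore do not measure the spread between mice, cells or preparations of a group. For population, 1 gene had an adjusted p under 0.05, 0.0089% of those tested, and 608 had an unadjusted p under 0.05. None of the 32 pathway genes was called (lowest limma adjusted p = 0.92, 0 with an unadjusted p under 0.05). Pdk2 had a limma log2 difference of 1.91 with an SE of 0.93 (adjusted p = 0.92), and Pkm2 one of 1.51 with an SE of 0.94 (adjusted p = 0.924).

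The second comparison asked how the libraries labelled GRK6-/- differ from WT in each population. Phosphofructokinase had another isozyme make-up in both, with more Pfkm, and G6pdx, which opens the pentose phosphate pathway, was about 2 times as high in both. Hk2 was lower in both. In HSC, 10 of 32 genes passed 2-fold, 5 higher and 5 lower, against 37.4% of all 11624 genes, 19.3% higher and 18.0% lower. In CLP, 7 of 32 passed, 3 higher and 4 lower, against 50% of all 11191 genes, 26.6% higher and 23.4% lower. Among genes with a mean of at least 10 FPKM, the counts were 9 of 26 in HSC against 33.3% of all such genes, and 4 of 25 in CLP against 45.0%. The median absolute log2 ratio of the pathway genes in CLP was 0.43 beside 1.0 over all genes. In HSC it was 0.64 beside 0.72. The median log2 ratio was -0.16 in HSC and -0.12 in CLP, beside 0.05 over all genes in both.

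Phosphofructokinase commits glucose to glycolysis, and its muscle (Pfkm), liver (Pfkl) and platelet (Pfkp) isozymes form mixed tetramers. Pfkm (chromosome 15 of mm9, 97923020 to 97962878, plus strand) had 3.99 (WT) and 27.7 (GRK6-/-) FPKM in HSC, and 6.96 (WT) and 36.1 (GRK6-/-) in CLP. Both libraries labelled GRK6-/- lay above both WT libraries, 6.95-fold in HSC and 5.19-fold in CLP. Pfkp ran the other way in HSC, at 20.1 FPKM in WT and 6.13 in GRK6-/-, with 7.59 and 5.58 in CLP. Pfkl had 14.4 and 7.46 FPKM in HSC and 10.1 and 11 in CLP. The sum of the 3 isozymes in HSC was 38.5 FPKM in WT and 41.3 in GRK6-/-, while the isozymes behind it differed. In CLP the sum was 24.7 and 52.6 FPKM. As a share of the summed FPKM, Pfkm made up 10.4%, 67.1%, 28.2% and 68.6% across the libraries.

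**Figure D3:**
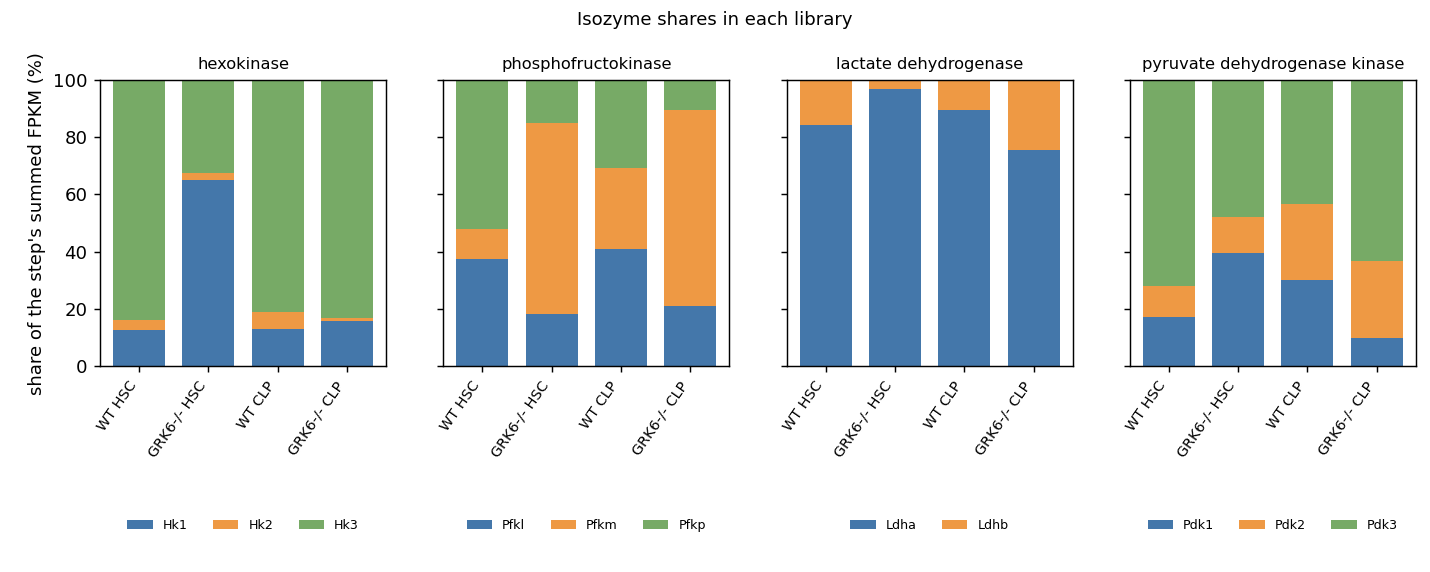
Share of each isozyme in the summed FPKM of its step (stacked bars, percent) in the 4 libraries, for hexokinase, phosphofructokinase, lactate dehydrogenase and pyruvate dehydrogenase kinase. Pfkm takes 67.1% and 68.6% in the GRK6-/- libraries against 10.4% and 28.2% in the WT libraries, and Hk1 takes 65.1% in GRK6-/- HSC against 12.7% to 15.6% in the others.

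The 7 erythroid markers with a row were higher in the GRK6-/- library of both populations, as Pfkm was. Between populations they went with Pfkm only in part. Pfkm was higher in CLP than in HSC, with log2 ratios of 0.67 in WT and 0.37 in GRK6-/-. Of the 7 markers, 2 were higher in CLP in WT and 4 in GRK6-/-. Klf1, the erythroid transcription factor, had 3.88, 51.5, 0.160 and 73.3 FPKM across the libraries, and Epor, the erythropoietin receptor, 3.19, 18.0, 0.131 and 7.43. Pklr, the pyruvate kinase of liver and red cells, was at 1.06, 5.08, 0.0870 and 0.549 FPKM. The part of erythroid cells in the Pfkm difference was not tested. In a pool of cells, more cells of a type and more RNA per cell cannot be told apart. RefSeq lists 4 starts for Pfkm. The 250 bases before the first are printed here because Pfkm and the erythroid markers were high in the same libraries, with the GATA factor motif AGATAA (searched on both strands) in capitals. They are GRCm38.p6 chr15:98092339-98092588, plus strand.

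Pfkm: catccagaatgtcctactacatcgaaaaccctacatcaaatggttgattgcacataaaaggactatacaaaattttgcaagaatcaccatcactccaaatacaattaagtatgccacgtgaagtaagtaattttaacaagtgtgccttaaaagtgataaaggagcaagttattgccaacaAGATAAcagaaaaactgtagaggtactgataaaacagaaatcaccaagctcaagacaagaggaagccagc

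This window holds 1 match. The windows of the other starts hold 2, 1 and 0 matches, and the first 2 of these overlap. AGATAA is found in the 250 bases before the start in 9.99% of 32851 RefSeq promoters of all genes, and in 3 of the 46 listed for 32 of the 33 pathway genes, all of them Pfkm. A match in letters is not a binding site, and the motif was chosen after the values had been seen. Slc2a3 was not matched, and Pkm2 was matched under its later symbol Pkm.

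G6pdx encodes glucose-6-phosphate dehydrogenase, which makes the first NADPH of the pentose phosphate pathway. It had 21.9 (WT) and 52.1 (GRK6-/-) FPKM in HSC, and 17.7 (WT) and 36.9 (GRK6-/-) in CLP. Both GRK6-/- values exceeded both WT values, 2.38-fold in HSC and 2.08-fold in CLP. The erythroid markers were high in the same libraries, and their part in this difference was not tested. The gene (chromosome X of mm9, 71654822 to 71674533, minus strand) overlaps the locus that the tables give for Ikbkg, which had 5.97, 3.61, 6.39 and 6.96 FPKM, lower in GRK6-/- HSC and higher in GRK6-/- CLP than in WT. The other NADPH-making enzyme, Pgd, had 69.8 and 106 FPKM in HSC and 111 and 65.1 in CLP, with log2 ratios of 0.59 and -0.76, and so went the other way in CLP. The summed FPKM of the oxidative branch was 412 and 426 in the HSC libraries and 581 and 606 in the CLP libraries. In the non-oxidative branch, Tkt was higher in both GRK6-/- libraries but under 2-fold, with log2 ratios of 0.49 and 0.78, and Rpia passed 2-fold only in CLP, with a log2 ratio of 1.58.

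Hexokinase traps glucose in the cell, and in HSC its isozymes differed in opposite directions, with Hk1 higher and Hk2 and Hk3 lower in GRK6-/-. In CLP all 3 were lower in GRK6-/-, past 2-fold only for Hk2. Hk2, the isozyme that growth signals and hypoxia induce, had 5.73 (WT) and 1.67 (GRK6-/-) FPKM in HSC, and 4.41 (WT) and 0.702 (GRK6-/-) in CLP, where it rests on about 10.5 fragments. WT was 3.44-fold higher in HSC and 6.28-fold higher in CLP. Hk3, the isozyme of myeloid cells, had 139, 22.1, 57.6 and 42.9 FPKM across the libraries. It fell short of 2-fold in CLP, and in HSC the WT library was 6.30-fold higher. In HSC, 0 of the 7 neutrophil and myeloid markers were higher in the library labelled GRK6-/-, and Ltf had no row in either library. S100a8 had 1706 FPKM in the WT library and 106 in that labelled GRK6-/-, and Camp had a row only in WT. Elane, Mpo, Prtn3 and Ctsg were lower by less than 2-fold, with log2 ratios of -0.49, -0.80, -0.48 and -0.33. The part of the neutrophil markers in the Hk3 difference was not tested. Hk1 was 2.10-fold higher in GRK6-/- HSC than in WT HSC. Hexokinase as a whole summed to 166, 68.1, 71.1 and 51.6 FPKM across the libraries. Hk3 was the leading isozyme in 3 libraries, with 83.9%, 80.9% and 83.0% of the sum in WT HSC, WT CLP and GRK6-/- CLP, and Hk1 led in GRK6-/- HSC with 65.1%.

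Of all 10398 genes in both genotype contrasts, 5.66% were higher and 4.43% lower past 2-fold in the GRK6-/- library of both populations, and 10.8% passed in opposite directions. Of the 32 pathway genes, 2 were higher in both (Pfkm and G6pdx), 1 lower in both (Hk2) and 1 opposite (Ldha). In the limma model 0 of 11230 genes had an adjusted p under 0.05 for genotype, 0% of those tested, while 500 genes and 1 of the pathway genes had an unadjusted p under 0.05. This gene was Pfkm, with a log2 difference of 2.37, an SE of 0.93 and a limma adjusted p of 0.999. Hk2 had a log2 difference of -1.50 and G6pdx one of 1.12, each with a limma SE of 0.93 and an adjusted p of 0.999.

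**Figure D4:**
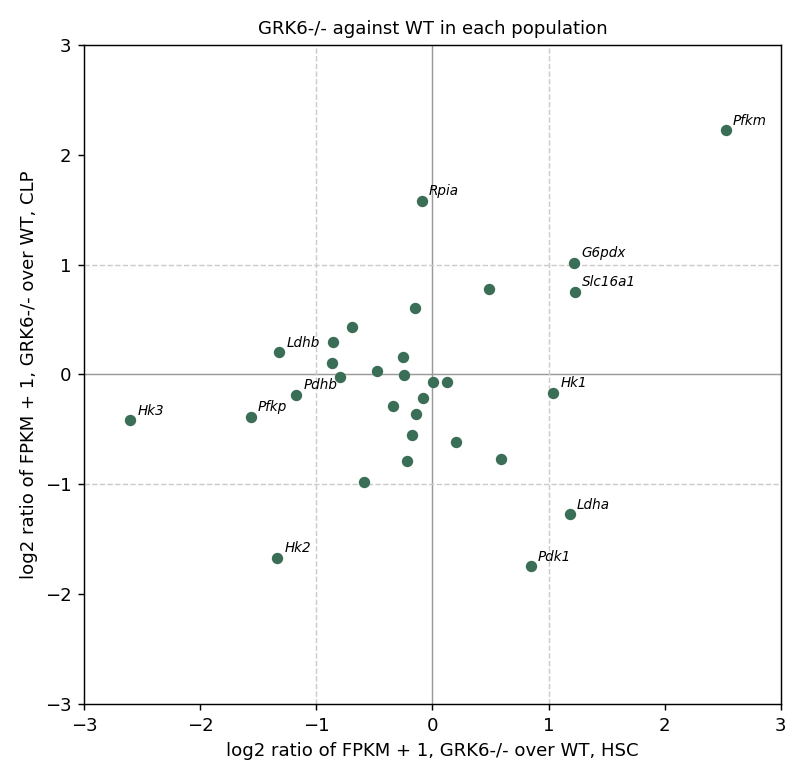
Log2 ratio of FPKM + 1, GRK6-/- over WT, in HSC (horizontal) and CLP (vertical), 1 point per gene, Eno3 left out. Dashed lines mark 2-fold, and genes past it on either axis are named. Pfkm (2.52 and 2.22) and G6pdx (1.22 and 1.02) lie at the upper right, Hk2 (-1.34 and -1.67) at the lower left, and Ldha (1.18 and -1.27) at the lower right.

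At the pyruvate branch point, Ldha, Ldhb and Pdk1 had genotype contrasts of opposite sign in the populations. Ldha, which reduces pyruvate to lactate, was the most abundant gene of the list in every library but GRK6-/- CLP. It had 457 (WT) and 1038 (GRK6-/-) FPKM in HSC, but 751 (WT) and 310.2 (GRK6-/-) in CLP. The GRK6-/- library was thus 2.27-fold higher in HSC, and the WT library was 2.42-fold higher in CLP. Pdk1, which diverts pyruvate from the mitochondria, had 8.89 and 16.8 FPKM in HSC and 29.3 and 8.04 in CLP, with log2 ratios of 0.85 and -1.74. Ldhb, the isozyme that favours the oxidation of lactate, had 85.6, 33.7, 88.0 and 101 FPKM across the libraries. GRK6-/- HSC stood below the others, which lay close together. The share of Ldha in the sum of both was 84.2%, 96.9%, 89.5% and 75.4% in that order.

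Hif1a, the oxygen-regulated transcription factor known to drive Ldha and Pdk1, had 2.30, 10.0, 12.4 and 6.76 FPKM across the libraries. Of the 31 pathway genes with a row in all 4 libraries, 3 had the sign of Hif1a in all 4 contrasts, namely Ldha, Pdk1 and Pgd. Eno3, which lacked a row in 2 libraries, had these signs as well. Hif1a was chosen for this comparison after its values had been seen, and the contrasts share libraries, so the shared signs are a description of these 4 libraries. How many of all genes had the same signs was not counted, so 3 of 31 cannot be set against a share. The part of Hif1a in the levels of these genes was not tested. Pgk1, which is also known as a Hif1a target, had the opposite sign to Hif1a in all 4 contrasts. Slc2a1, another known target, and Hk2, which hypoxia induces, were negative in all 4. Hif1a was positive for CLP against HSC in WT and for GRK6-/- against WT in HSC. Pgk1, phosphoglycerate kinase, had 67.6, 41.4, 46.9 and 63.7 FPKM and Slc2a1, the glucose transporter GLUT1, had 6.87, 4.23, 4.6 and 1.85 FPKM. The markers of cycling cells, of which 5 had a row, summed to 296 and 219 FPKM in the HSC libraries and to 630.3 and 107 in the CLP libraries. Top2a was the largest part in the WT libraries, with 166, 57.1, 478 and 36.5 FPKM across the libraries. Mki67 had 22.6, 19.9, 22.3 and 26.2 FPKM. Of the 5 markers, 1 was higher in the GRK6-/- library in HSC and 1 in CLP. The part of cycling cells in the Ldha difference was not tested.

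**Figure D5:**
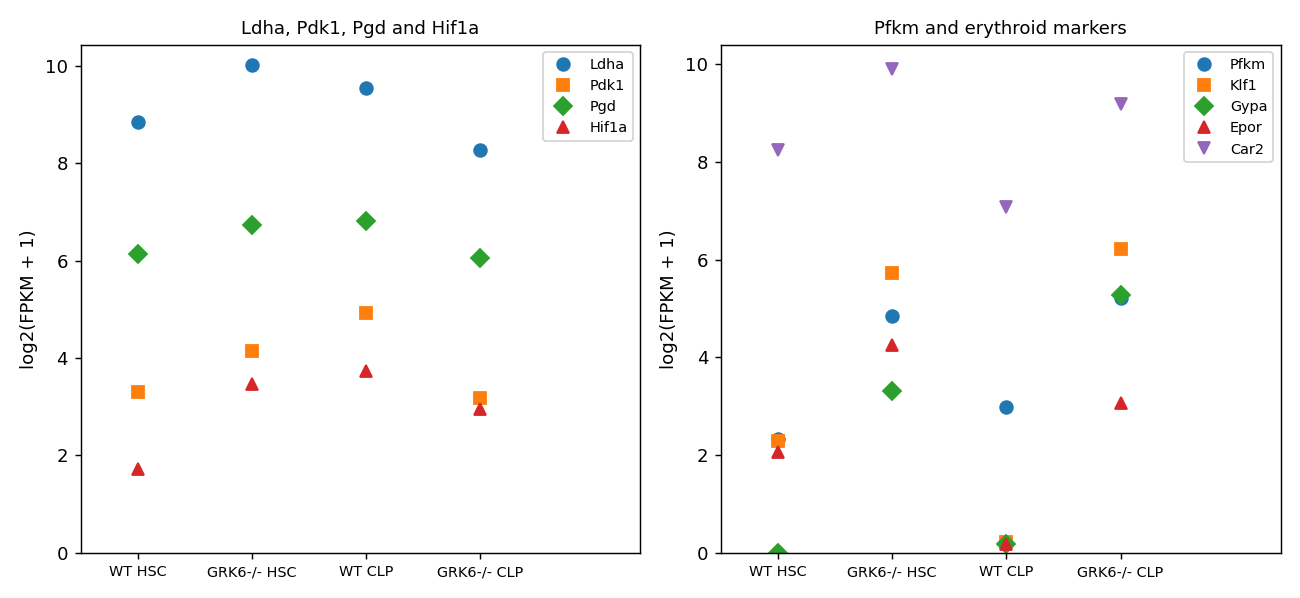
Levels as log2(FPKM + 1) in the 4 libraries, 1 point per gene and library, with no row drawn at 0. Left, Ldha, Pdk1 and Pgd with Hif1a, all higher in GRK6-/- HSC than in WT HSC and lower in GRK6-/- CLP than in WT CLP. Right, Pfkm with 4 erythroid markers, all higher in the GRK6-/- library of each population.

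The 250 bases before the first listed start of Ldha and Pdk1 are printed because these genes shared the signs of Hif1a. They come from RefSeq, GRCm38.p6, plus strand, chr7:46845554-46845803 for Ldha and chr2:71872974-71873223 for Pdk1. Capitals mark ACGTG and GCGTG, the core letters of the hypoxia response element, on either strand.

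Ldha: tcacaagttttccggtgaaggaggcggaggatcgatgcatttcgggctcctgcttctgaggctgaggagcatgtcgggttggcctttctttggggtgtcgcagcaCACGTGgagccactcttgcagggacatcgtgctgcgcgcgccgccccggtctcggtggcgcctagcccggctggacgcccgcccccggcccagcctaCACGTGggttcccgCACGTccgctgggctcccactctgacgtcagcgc

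Pdk1: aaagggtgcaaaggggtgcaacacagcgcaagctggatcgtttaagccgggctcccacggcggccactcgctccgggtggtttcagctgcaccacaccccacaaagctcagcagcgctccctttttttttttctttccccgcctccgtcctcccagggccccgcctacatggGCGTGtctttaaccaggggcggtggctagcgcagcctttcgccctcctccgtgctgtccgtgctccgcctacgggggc

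Ldha holds 5 matches at 3 places, since CACGTG reads as ACGTG on both strands, and Pdk1 holds 1. The windows of their other starts hold 1 match for Ldha and 0 for Pdk1. ACGTG or GCGTG is found in 36 of the 46 promoters of the pathway genes and in 38.6% of the 32851 promoters of all genes. Of the 32 matched pathway genes, 29 had 1 match or more. Here too a match in letters is not a binding site, and these promoters were chosen after the values had been seen.

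The pyruvate dehydrogenase complex joins glycolysis to the citric acid cycle, and its subunits did not move together. Pdhb, the beta subunit of its first enzyme, had 185, 81.4, 95.6 and 84.1 FPKM across the libraries, so that WT HSC stood above the rest. Pdha1, the alpha subunit of the same enzyme, had 23.7, 21.3, 18.0 and 13.8 FPKM, and Dlat, the second enzyme of the complex, had 15.1, 11.7, 26.1 and 21.2. Among the kinases that inhibit it, Pdk3 led in every library, with 71.8%, 47.8%, 43.2% and 63.1% of the summed FPKM in turn. The sum of the kinases Pdk1, Pdk2 and Pdk3 was 52.3 and 42.6 FPKM in the HSC libraries and 97.3 and 82.0 in the CLP libraries. Both CLP sums exceeded both HSC sums, with log2 ratios of 0.88 and 0.93.

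Transporters were low by comparison. Slc2a3, the transporter GLUT3, had 10.1, 9.01, 10.9 and 17.1 FPKM across the libraries, above Slc2a1 in each library. Slc16a1, the monocarboxylate transporter MCT1 that passes lactate, had 8.90 and 22.1 FPKM in HSC and 9.96 and 17.5 in CLP. Both GRK6-/- values exceeded both WT values, but only the HSC contrast passed 2-fold, with log2 ratios of 1.22 and 0.75. Gpi1 and Pgam1 complete the backbone and stayed within 2-fold in all contrasts, between 74.5 and 126 FPKM for Gpi1, the glucose phosphate isomerase, and between 66.3 and 116 FPKM for Pgam1, the phosphoglycerate mutase.

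Enolase needs its own account, because Eno1 had no row by symbol. The annotated Eno1 gene (chromosome 4 of mm9, 149610830 to 149622988, plus strand) was covered in every table by a row named Gm5506, a near-identical copy of Eno1 elsewhere in the genome. That row had 79.5, 90.3, 59.9 and 78.2 FPKM across the libraries, with log2 ratios from -0.40 to 0.38 over the 4 contrasts. The row of the same name at the copy itself had 85.3, 122, 69.8 and 81.3 FPKM, so how reads were divided between the loci is uncertain. This row was looked up after the values had been seen and was not counted among the 32 genes. Eno3, the muscle enolase, had no row in WT HSC and GRK6-/- CLP, 0.964 FPKM in GRK6-/- HSC and 2.74 in WT CLP. It counts as past 2-fold in both contrasts with WT CLP. No share of enolase is given, because of the uncertain division of reads. Gapdh, Ldha, Tpi1 and Pgk1 also have processed copies in the mouse genome, and their values carry the same uncertainty.

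Of 58 further genes of these pathways and their regulators, 40 had a row. Their counts can be read against the shares of all genes given above. CLP against HSC, 16 of 36 passed 2-fold in WT (7 higher, 9 lower) and 15 of 37 in GRK6-/- (9 higher, 6 lower). GRK6-/- against WT, 10 of 37 passed in HSC (7 higher, 3 lower) and 22 of 39 in CLP (14 higher, 8 lower). Slc2a6, a glucose transporter of leukocytes, was past 2-fold in all 4 contrasts, with 0.183, 4.42, 1.57 and 26.6 FPKM across the libraries. Ldhd, the D-lactate dehydrogenase, had a row only in the GRK6-/- libraries, at 1.45 FPKM in HSC and 10.0 in CLP. Pdp2, a phosphatase that reactivates pyruvate dehydrogenase, was higher in CLP of both genotypes, at 1.68 and 0.818 FPKM in HSC and 4.75 and 2.67 in CLP. Pgm2, a phosphoglucomutase, was lower in CLP of both, at 19.8 and 31.3 FPKM in HSC and 5.31 and 14.5 in CLP.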

How the data were processed

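The authors pooled amplified cDNA of single sorted cells into 1 library per group, aligned the reads to mm9 (TopHat 1.4.0 in the submitters' processing notes) and quantified genes with the Tuxedo suite. The deposited tables hold 1 FPKM value per gene, with no counts, replicates or p-values, and between 10056 and 11060 rows per library. The annotation and settings are not given in the sources used here. How reads that match several copies of a gene were assigned is likewise not given.

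Rows of a symbol were summed. The 333 symbols or joint names that occur in a row with several genes were left out, none of them a pathway gene. The fold threshold is that of the study. Genes were named by a rule: every gene of the list, and the further pathway genes past 2-fold the same way in both genotypes or both populations. Ldhd, Slc2a6, Pdp2 and Pgm2 come from the second part. Pklr, Hif1a and Ikbkg were named after their values were seen. The gene list, marker lists and thresholds were chosen with earlier results of these data known.

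limma 3.58.1 (R 4.3.3, Benjamini-Hochberg adjustment) was fitted to log2(FPKM + 1) of genes with at least 1 FPKM in at least 1 library. Other steps used Python 3.11.15, numpy 2.4.6, pandas 2.3.3 and matplotlib 3.10.9. The limma fit and the depth estimate were tested on simulated data. For limma, these data had less noise and larger differences than the pathway genes here. For depth, they had no amplification of cDNA. The tests therefore do not show how either method performs on these libraries. The depth estimate rests on the smallest values among genes to which GENCODE gives 1 transcript in mm9, and fragments per gene use the longest transcript. Alternatives changed the pseudocount, the filter, the treatment of absent, repeated and joint rows, the scaling, the threshold and the isozymes of a step. In the promoters, the first RefSeq start of each printed gene was used.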

Additional observations from a re-analysis of the deposited data

Results flagged for a closer look

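Ldha had opposite genotype contrasts in the populations, both past 2-fold. The log2 ratio of GRK6-/- over WT was 1.183 in HSC and -1.274 in CLP. The design holds no replicate with which to test this difference, and it was not tested. Among all 10398 genes in both contrasts, 10.8% passed 2-fold in opposite directions.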

How the results depend on the processing

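No contrast of a single pathway gene past 2-fold changed its direction under any alternative. Most alternatives could not have changed it, since a pseudocount, a filter or a threshold leaves the sign of a ratio as it is. A pseudocount of 5 took the genes past 2-fold to 6 for CLP against HSC in WT and 4 for GRK6-/- against WT in CLP, and those past it the same way to 3 in both genotypes and 1 (Pfkm) in both populations. An absolute log2 ratio of at least 2 left 0 and 1 genes for CLP against HSC in WT and GRK6-/-, 2 and 1 for GRK6-/- against WT in HSC and CLP, and 0 and 1 the same way. A mean of at least 10 FPKM, added after seeing the data, left 4 for GRK6-/- against WT in CLP, among fewer genes. Other counts stayed within 1.5 times. Adding the other listed glucose transporters took Slc2a1 to 17.2%, 13.0% and 3.28% and Slc2a3 to 36.7%, 30.8% and 30.3% of the glucose transporters in GRK6-/- HSC, WT CLP and GRK6-/- CLP. limma called 0 genes for population with a pseudocount of 0.1 or no filter and 5 after rescaling, which gave 1 for genotype, and 0 pathway genes in each. For single genes, 1070 values kept their side of the threshold and 6 newly passed it. A pseudocount of 5 brought 11 values under 2-fold, and the stricter threshold left 32 values that still passed 2-fold below it. No library could be left out, since each group has 1. No paired analysis was possible because the labels carry no replicate numbers. Depth limits Aldoc, Eno3, Hk2 and Slc2a1, which have values under 30 estimated fragments. Pfkm in WT HSC and Pdk2 in both HSC libraries lie not far above that limit.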
